A study of Mus musculus with 23 samples.

Results

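The MYC network is a set of transcription factors that bind DNA as partners of MAX, and 8 of its genes were followed: Myc and Mycn, which encode the activators, Max, which encodes the shared partner, and Mxd1, Mxd3, Mxd4, Mxi1 and Mnt, which encode repressors that compete for MAX. They are 8 of the 19937 genes that have a probe set with that gene as its only symbol on the array, and each of the 8 is read by exactly 1 such probe set. The study profiled sorted mouse bone marrow progenitors on 23 Affymetrix arrays and asked, per its title, whether differentiation must precede leukaemia initiation. Knockout cells came from Mx.1-Cre+ C/EBPa f/f mice and control cells from Mx.1-Cre- C/EBPa f/f mice. All these mice, controls included, received 3 injections of poly I:C, which switches on the interferon-inducible Cre, so deletion is not restricted to blood cells and is not linked to a lineage. Leukaemic granulocyte-macrophage progenitors (L-GMPs) of knockout genotype were on 3 arrays, 2 from secondary recipients and 1 from the primary recipient that seeded them, so that they represent 1 leukaemia. That leukaemia arose from KSLs (lineage-negative, Sca-1-positive, c-kit-positive cells) that carried a retrovirus with the fusion oncogene MLL-AF9 and GFP, in an irradiated congenic recipient given supporting marrow, once the recipient had received expression vectors for the cytokines IL-3 and GM-CSF by injection. Control L-GMPs, from control KSLs with MLL-AF9 and with no such injection named, were on 4 arrays, 2 from secondary and 2 from primary recipients. GFP-positive knockout cells with MLL-AF9 came from further recipients that the labels do not call leukaemic, as common myeloid progenitors (CMPs) on 3 arrays and as KSLs on 2 arrays, and both KSL arrays are from animals that also gave CMPs. Untransplanted knockout CMPs were on 4 arrays, control granulocyte-macrophage progenitors (GMPs) on 3 and control CMPs on 4, all taken 5 days after the injections. The labels give no age, and they do not say which control arrays share a donor, so the p-values measure only the spread between these samples, part of which may be technical.

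MYC and MYCN form dimers with MAX that bind the E-box CACGTG and raise the transcription of genes for ribosome assembly, nucleotide synthesis and cell cycle entry. The MXD proteins, MXI1 and MNT bind the same sites with MAX and recruit the SIN3 histone deacetylase complex, and several of them are known to rise as blood cells leave the cycle. C/EBPα, the factor that drives progenitors towards granulocytes and monocytes, is known to lower Myc expression through E2F sites in the Myc promoter, and both MYC and MYCN can drive myeloid leukaemia in mice.

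Values are log2 levels of the deposited, already normalised data, comparable between arrays for a given gene and not between genes. A difference is given as a log2 change ± its standard error (SE), and a gene is said to rise or fall where limma's Benjamini-Hochberg adjusted p over all 19937 genes was below 0.05. Cebpa, read as a check of genotype, lay between 4.33 and 5.55 on every knockout array and between 7.19 and 7.96 on every control array. Kit, part of the sort, ran from 6.33 to 9.03 on the L-GMP arrays and from 8.65 to 10.78 on the others, and Fcgr3, which separates GMPs from CMPs, was 9.60 to 9.76 in control GMPs and 7.26 to 8.28 in control CMPs. Cd34, which the CMP sort requires, was 7.99 to 8.73 in MLL-AF9 knockout CMPs and KSLs and 9.98 to 10.35 in knockout CMPs. The 2 MLL-AF9 knockout KSL arrays differed in Fcgr3 by more than the CMP groups did, at 5.63 and 8.87. The arrays also differ in noise: the median absolute residual was 0.143 to 0.176 on MLL-AF9 knockout arrays and 0.15 on the primary control L-GMP arrays, against 0.0683 to 0.0812 on the untransplanted arrays. Groups of transplanted and untransplanted cells may have been run in different batches, and MLL-AF9, transplantation and batch cannot be told apart between them.

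Promoter windows of 250 bases before and 50 bases after the annotated start were available from RefSeq (GRCm38.p6) for 7 of the 8 genes, and Myc has none in that table. Those of Mycn and Mxd4 are shown because these are the members that differed between knockout and control CMPs. Only the 250 bases before the start are printed, on the gene's strand, 5′ to 3′, with capitals marking matches to the E2F motif (TTTGGCGC or TTTCGCGC, either strand) or to the E-box CACGTG. The Mycn window lies at chr12:12941837-12942086 and the Mxd4 window at chr5:34187711-34187960, both on the minus strand.
Mycn: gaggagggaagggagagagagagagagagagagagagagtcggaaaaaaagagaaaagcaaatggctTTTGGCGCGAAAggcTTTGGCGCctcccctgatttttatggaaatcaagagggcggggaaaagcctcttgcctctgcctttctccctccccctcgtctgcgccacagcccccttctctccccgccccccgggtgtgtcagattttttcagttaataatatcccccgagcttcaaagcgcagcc
Mxd4: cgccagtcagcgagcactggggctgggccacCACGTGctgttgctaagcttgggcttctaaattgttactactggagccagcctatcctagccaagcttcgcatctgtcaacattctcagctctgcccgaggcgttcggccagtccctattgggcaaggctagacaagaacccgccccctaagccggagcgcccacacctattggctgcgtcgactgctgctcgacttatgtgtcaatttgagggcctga
The Mycn window held the letters TTTGGCGC at 183 and again at 168 bases before the start, and the letters GCGCGAAA, which are TTTCGCGC on the other strand, at 179 bases before it, overlapping the upstream match. E2F proteins are the cell cycle factors through which C/EBPα is known to act on Myc, and in human neuroblastoma cells they are known to bind the MYCN promoter. Of 32851 windows of 300 bases, 0.813% held this E2F motif and 0.0244% held it 2 or more times. The E-box stood 219 bases before the Mxd4 start and 123 bases before the Mnt start, and at the start itself in Max, in a motif found in 7.15% of all windows. The C/EBP motif TTNNGNAA, searched on both strands, occurred at 148 bases before the Mycn start, at 103 before Mxd1, at 174 before Mxd3 and once in the Mxd4 window, and it is common, in 40.7% of all windows. A match describes the letters and is not evidence of binding.

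Mycn was the member that separated the samples most clearly. In knockout CMPs its level was 7.08, 6.98, 7.08 and 6.80, against 5.84, 5.92, 5.88 and 5.43 in control CMPs. The 2 groups did not overlap, and every knockout array lay above every control array. Mycn rose by 1.22 ± 0.20 on the log2 scale in the knockout, 2.33-fold (95% interval 0.81 to 1.64, limma adjusted p 0.00166). Leaving out any of the 8 arrays kept the rise past the threshold, with adjusted p up to 0.00823. In bulk RNA, more cells that express a gene and more RNA per cell cannot be told apart. Markers of other myeloid cells moved with genotype: 5 of 6 primary granule genes and 6 of 7 monocyte genes fell, and the mean log2 level of the granule list was 6.80 to 8.08 in knockout CMPs and 9.84 to 10.87 in control CMPs. The monocyte list stood at 4.87 to 5.62 in knockout CMPs and at 8.01 to 8.32 in control CMPs, with no listed gene at the floor on every array. None of the 9 erythroid and 6 megakaryocyte markers passed the test. The part of these cell types in the Mycn difference was not tested. Control GMPs had Mycn at 5.13, 5.27 and 5.05, below all 4 control CMP arrays. That change, −0.61 ± 0.21, did not pass over all genes (adjusted p 0.311; 0.0101 with array weights).

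**Figure D1:**
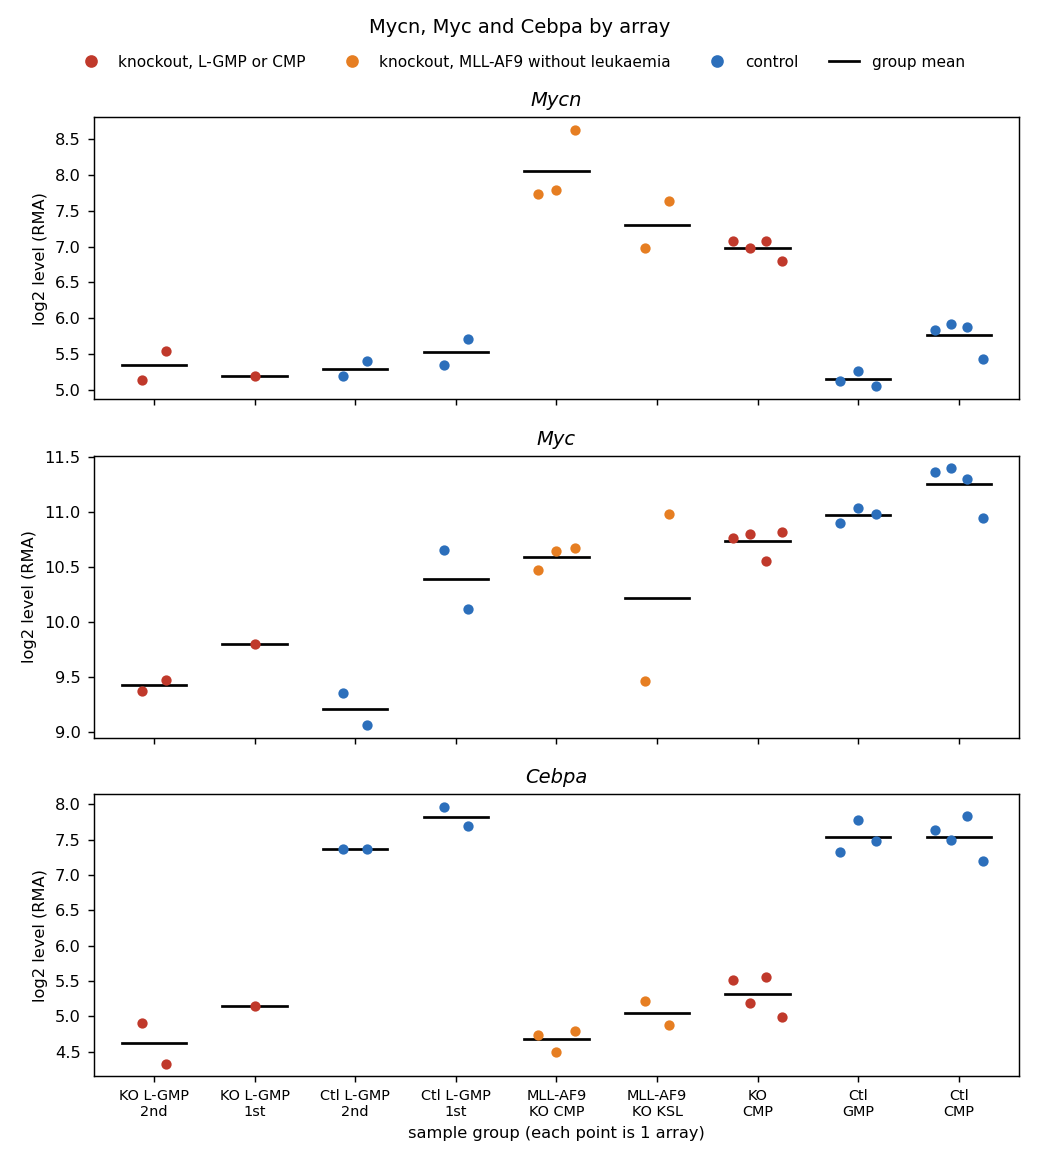
Log2 level of Mycn, Myc and Cebpa on each of the 23 arrays (vertical axes) by sample group (horizontal axis), with each point 1 array and each bar the group mean. Mycn lies between 6.80 and 8.63 in knockout CMPs and MLL-AF9 knockout CMPs and KSLs and at 5.92 or below elsewhere, knockout L-GMPs included, while Cebpa is low in every knockout group.

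Mycn was higher again in knockout cells that carried MLL-AF9 and are not labelled leukaemic. Its level was 7.73, 7.79 and 8.63 in MLL-AF9 knockout CMPs, above all 4 knockout CMP arrays (6.80 to 7.08). The rise was 1.06 ± 0.21 on the log2 scale, 2.09-fold (95% interval 0.62 to 1.51, limma adjusted p 0.0103). It kept its call with any of the 7 arrays left out (adjusted p up to 0.029) and lost it when only these 2 groups were fitted (adjusted p 0.082). In the same comparison 1 of 9 erythroid markers rose and 3 of 6 granule markers fell, and their part in the rise was not tested. Cebpa was 4.49 to 4.79 in MLL-AF9 knockout CMPs and 4.99 to 5.55 in knockout CMPs. That change, −0.64 ± 0.18, did not pass (limma adjusted p 0.0588), and its part in the Mycn rise was not tested. The comparison shares the knockout CMP arrays with the one above. Its groups differ in MLL-AF9, culture, transplantation and time since deletion, which cannot be told apart. MLL-AF9 knockout KSLs stood at 6.98 and 7.63, below every MLL-AF9 knockout CMP array. The change of CMPs over KSLs, 0.74 ± 0.25, did not pass (adjusted p 0.116). It was 0.42 without KSL replicate 1 (adjusted p 0.562), 1.06 without KSL replicate 2 (0.0285), and 0.45 without CMP replicate 3 or with animal as a block.

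In leukaemic cells Mycn was low in both genotypes, near the level of normal control GMPs (5.05 to 5.27). Its change in control L-GMPs over control GMPs was 0.26 ± 0.21, with overlapping arrays, and did not pass (limma adjusted p 0.39). Knockout L-GMPs had 5.14 and 5.55 on the secondary arrays and 5.19 on the primary array, against 6.98 to 8.63 on the 5 arrays of MLL-AF9 knockout CMPs and KSLs. No array of the leukaemia reached the lowest of those 5. Cebpa did not differ past the threshold between these cells (0.02, limma adjusted p 0.98), and its part in the Mycn difference was not tested. Mycn fell by 2.41 ± 0.21 on the log2 scale in knockout L-GMPs, a 5.33-fold difference (95% interval −2.86 to −1.97, limma adjusted p 1.18e-06). Control L-GMPs, with 5.19 and 5.40 on secondary and 5.35 and 5.71 on primary arrays, were lower than the same MLL-AF9 knockout cells by a log2 change of −2.27 ± 0.19 (adjusted p 5.53e-07). The 2 comparisons share the 5 MLL-AF9 knockout arrays, and both calls held under every alternative tried. The knockout L-GMP arrays are 1 leukaemia, and both KSL arrays are from animals that also gave CMPs. The main fit treats all arrays as independent, here and for the genes below, so its p-values measure only the spread between these arrays. Sorted cell type also differs, GMPs against CMPs and KSLs, and cannot be told apart from leukaemia. Erythroid markers were lower on the leukaemia side of each, for 7 of 9 genes in knockout and 8 of 9 in control L-GMPs, and granule and monocyte markers were higher. The mean erythroid level was 5.56 to 5.57 in knockout L-GMPs, 5.09 to 5.63 in control L-GMPs and 6.34 to 8.68 in the MLL-AF9 knockout cells. The part of erythroid cells in the fall was not tested.

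Between genotypes of the leukaemia, Mycn did not pass: its change in knockout over control L-GMPs was −0.14 ± 0.22 (95% interval −0.61 to 0.32, limma adjusted p 0.784), and it was 0.05 with secondary recipients alone. That L-GMP comparison sets 1 knockout leukaemia, whose primary recipient was given IL-3 and GM-CSF vectors, against controls with none named. Genotype, vectors and the individual leukaemia cannot be told apart in it. Tested directly, the Mycn change of knockout over control differed between the settings. The change in L-GMPs minus that in CMPs was −1.37 ± 0.29 (95% interval −1.99 to −0.74, limma adjusted p 0.0181). The call held with any of the 15 arrays left out (adjusted p up to 0.0483) and was lost with replicate number as a block (−1.28, adjusted p 0.0624).

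Chosen for description after these levels were seen, the split of the 9 knockout arrays other than L-GMPs (6.80 to 8.63) from the other 14 arrays (5.05 to 5.92) left a gap of 0.88 for Mycn. Of all genes, 86 (0.431%) were higher on all 9 arrays than on any of the 14. Only Ctla2a, Gimap5, Gimap1 and Plxdc2 had a wider gap, at 1.18, 1.00, 0.94 and 0.92. Gimap genes encode GTPases known from lymphocytes.

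Myc ran a different course, with its highest levels in untransplanted control cells and its lowest in secondary L-GMPs. In control GMPs it stood at 10.90, 11.04 and 10.98, against 11.37, 11.40, 11.30 and 10.95 in control CMPs, and the groups overlapped. Knockout CMPs had 10.77, 10.80, 10.56 and 10.82, all below the lowest control CMP array, with a change of −0.52 ± 0.23 (95% interval −1.0 to −0.04) that did not pass over all genes (limma adjusted p 0.265). Array weights and a fit of these 2 groups alone put it past the threshold (adjusted p 0.00269 and 0.0216). Myc and Mycn thus had changes of opposite sign in knockout CMPs, 1 of them past the threshold. MLL-AF9 knockout CMPs had Myc at 10.47, 10.65 and 10.67 and MLL-AF9 knockout KSLs at 9.46 and 10.98, a spread wide enough to span several other groups.

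Control L-GMPs had Myc at 9.35 and 9.06 on secondary and 10.66 and 10.12 on primary arrays, all below the control GMP arrays (10.90 to 11.04). Myc fell by 1.17 ± 0.24 on the log2 scale in control L-GMPs, a 2.25-fold difference from control GMPs (limma adjusted p 0.00346). The fall held without any of the 7 arrays (adjusted p up to 0.0182) and lost its call with primary recipients alone (−0.58, adjusted p 0.162). Within control leukaemias, secondary arrays were lower than primary arrays by a log2 change of −1.19 ± 0.32 (adjusted p 0.0329). That call rests on 2 arrays a side and was lost without any of them, with adjusted p 0.124 and 0.0532 without primary replicates 1 and 2 and 0.0694 and 0.201 without secondary replicates 1 and 2. It was also lost with these groups alone (0.406), with array weights (0.127) and with quantile normalisation (0.0521). Knockout L-GMPs had 9.37 and 9.47 on secondary arrays and 9.80 on the primary array. Their change from control L-GMPs was −0.19 ± 0.25 (95% interval −0.72 to 0.35, adjusted p 0.748), and 0.21 with secondary recipients alone.

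Against the MLL-AF9 knockout progenitors, Myc fell by 0.80 ± 0.24 in knockout L-GMPs (limma adjusted p 0.0398), and the arrays of the sides overlapped through MLL-AF9 knockout KSL replicate 1 at 9.46. The call was lost without knockout L-GMP secondary replicate 1 or 2 (adjusted p 0.0957 and 0.0795), without MLL-AF9 knockout KSL replicate 2 (−0.42, adjusted p 0.0604) and without MLL-AF9 knockout CMP replicate 2 or 3 (0.0587 and 0.0545). It was also lost with the compared groups alone (0.432) and with the replicate block (0.0685). In control L-GMPs the change was −0.61 ± 0.21 (adjusted p 0.0593). It passed without MLL-AF9 knockout KSL replicate 1 (−0.99, adjusted p 7.1e-05) or primary control L-GMP replicate 1 (−0.74, 0.0359), with MLL-AF9 knockout CMPs alone on the other side (−0.80, 0.0278), with robust estimation (0.0431) and with a minimum mean of 5 (0.0304). In the other alternatives the change lay between −0.68 and −0.23, and it was smallest without MLL-AF9 knockout KSL replicate 2.

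Max, the obligate partner, was among the steadier members, with group means spanning 0.69 on the log2 scale and no pair of neighbouring groups in that order free of overlap. Control L-GMPs had 9.88 and 9.58 on secondary and 10.02 and 9.71 on primary arrays, against 10.25, 10.43 and 10.32 in control GMPs, and these groups did not overlap. Max fell by 0.54 ± 0.14 in control L-GMPs (limma adjusted p 0.0131). The call was lost without primary control L-GMP replicate 2 (adjusted p 0.0528), secondary control L-GMP replicate 2 (0.0502) or control GMP replicate 2 (0.0601), with primary recipients alone (0.0591), and in no other alternative. In knockout CMPs Max was 10.34, 10.22, 10.21 and 10.17, against 10.46, 10.55, 10.38 and 10.29 in control CMPs, with the groups overlapping and adjusted p 0.62.

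Mxd4, which encodes a MAD-family repressor, was the repressor that differed with genotype in CMPs. It stood at 8.73, 8.67, 8.24 and 8.29 in knockout CMPs, against 7.88, 7.82, 7.99 and 7.52 in control CMPs, without overlap. Mxd4 rose by 0.68 ± 0.18 in the knockout, 1.60-fold (limma adjusted p 0.0353). This call was less stable than that of Mycn. It was lost without control replicates 1, 2, 3 or 4 (adjusted p 0.0642, 0.0766, 0.053 and 0.128), without knockout replicates 1 or 2 (0.135 and 0.119) and with high Xist, a mark of female arrays, as a covariate (0.0598) or replicate number as a block (0.0568). In every such fit the change stayed between 0.58 and 0.75. Between L-GMPs of knockout and control genotype the Mxd4 change was −0.09 ± 0.20 (adjusted p 0.865), and the difference of the knockout effects did not pass (−0.77, adjusted p 0.144).

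Mxi1, another repressor of the family, was highest in leukaemic cells and lowest in MLL-AF9 knockout KSLs. Knockout L-GMPs had 7.48 and 8.25 on secondary arrays and 7.34 on the primary array, against 6.54, 6.56 and 6.91 in MLL-AF9 knockout CMPs and 6.19 and 6.12 in MLL-AF9 knockout KSLs. All leukaemic arrays lay above all of these. Mxi1 rose by 1.19 ± 0.17 in knockout L-GMPs, 2.28-fold (limma adjusted p 0.000199), a call lost when only the compared groups were fitted (adjusted p 0.0875). Control L-GMPs had 8.17 and 7.63 on secondary and 7.22 and 7.51 on primary arrays and rose by 1.22 ± 0.15 over the same MLL-AF9 knockout cells (adjusted p 4.37e-05). Mycn and Mxi1 therefore moved in opposite directions in both of these comparisons, which share their MLL-AF9 arrays. Over control GMPs, with 7.05, 7.22 and 7.03, Mxi1 rose by 0.53 ± 0.17 in control L-GMPs with overlapping ranges (adjusted p 0.0346). That call was lost without control GMP replicates 1, 2 or 3 (0.0939, 0.0609 and 0.105), primary control L-GMP replicate 2 (0.11) or secondary control L-GMP replicate 1 (0.126), and with primary recipients alone (0.26, adjusted p 0.385). It was also lost with the compared groups alone (0.0777), with array weights (0.0732) and with the replicate block (0.118).

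Mnt and Mxd3 changed between leukaemic and normal control cells. Mnt, a widely expressed antagonist of MYC, stood at 7.19 and 7.24 on secondary and 7.43 and 8.33 on primary control L-GMP arrays, against 6.93, 7.03 and 6.88 in control GMPs. It rose by 0.60 ± 0.17 in control L-GMPs (limma adjusted p 0.0184), with primary control L-GMP replicate 2 far above the rest. Without that array the change was 0.37 (adjusted p 0.0617), and the call was also lost without control GMP replicates 1 or 3 (0.0528 and 0.0654) and in the fit of the compared groups alone (0.119). Mxd3, a repressor known to be made in dividing cells, stood at 5.38 and 5.13 on secondary and 4.99 and 5.01 on primary control L-GMP arrays, against 5.82, 5.61 and 5.71 in control GMPs. It fell by 0.59 ± 0.16 without overlap (adjusted p 0.015). The call was lost without control GMP replicate 1 (0.0585) or secondary control L-GMP replicate 2 (0.0518) and with the replicate block (0.051).

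Mxd1, the repressor best known from differentiating granulocytes, moved least of the 8, with group means spanning 0.50. It was 7.47, 7.51, 7.38 and 7.10 in knockout CMPs, against 7.18, 6.56, 6.92 and 6.92 in control CMPs. The groups overlapped, and the change of 0.47 did not pass (limma adjusted p 0.17; 0.0138 with array weights). Of all genes 69.0% had group means spanning at least as much as Mxd1, against 1.83% for Mycn, 5.04% for Myc and 7.82% for Mxi1.

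**Figure D2:**
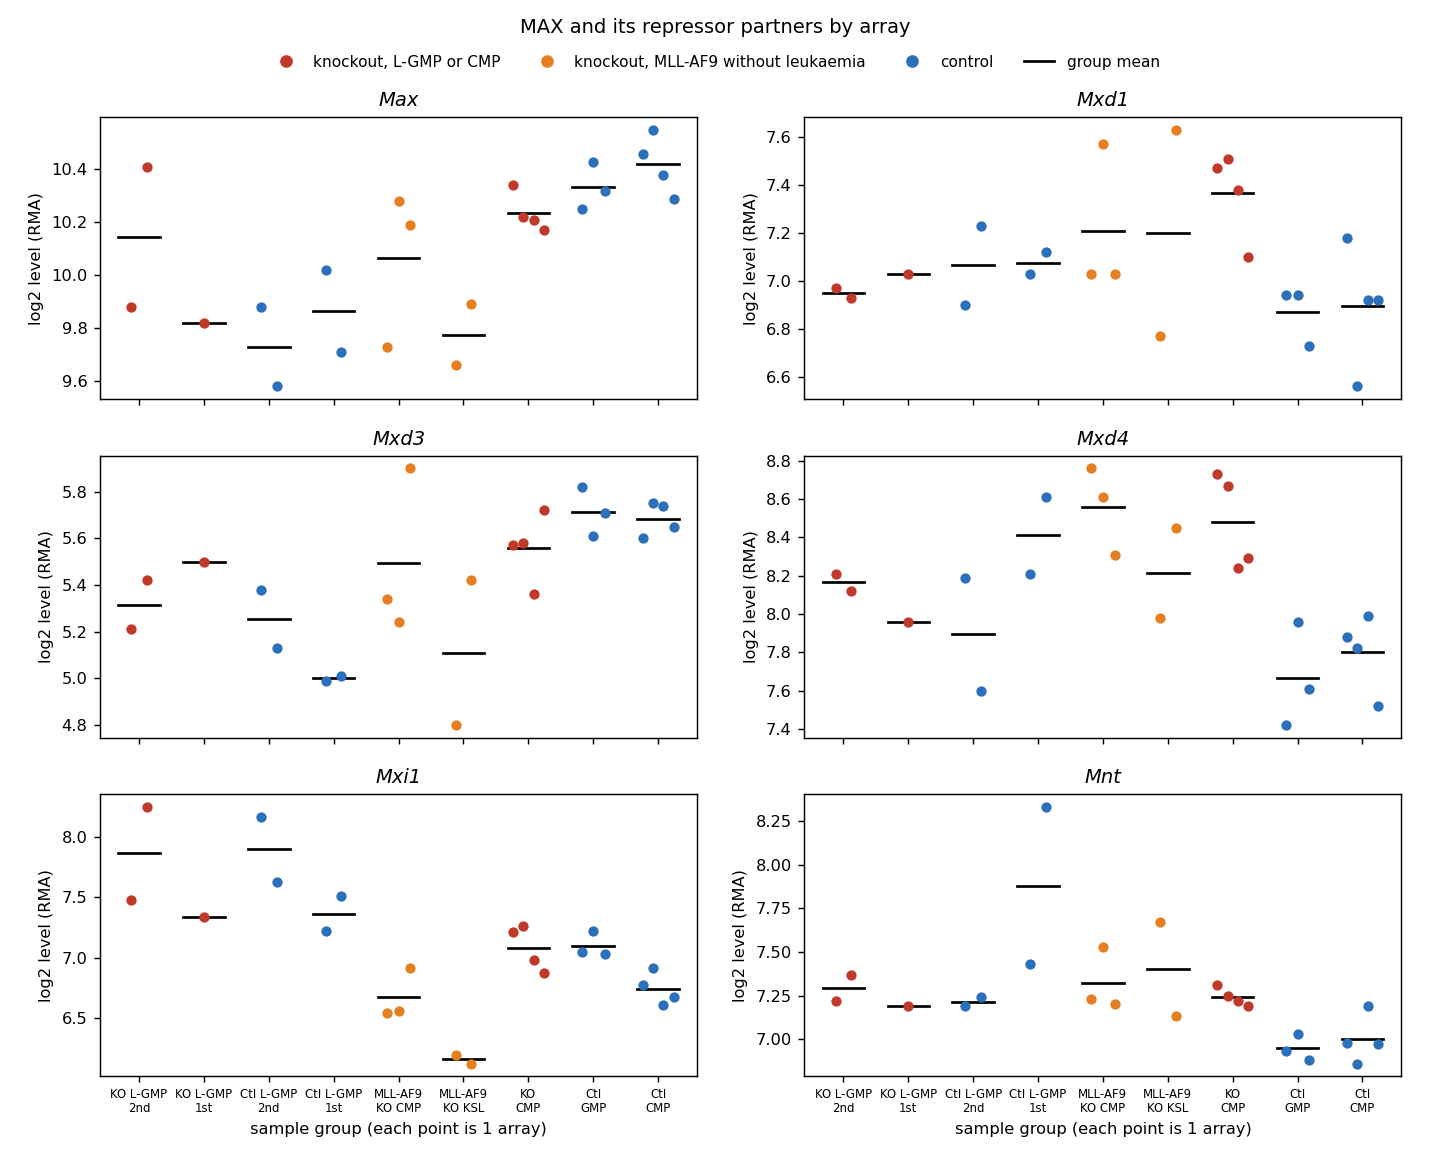
Log2 level of Max and of the 5 repressors on each of the 23 arrays (vertical axes, scaled separately per gene) by sample group (horizontal axis), with each point 1 array and each bar the group mean. Mxi1 is at 7.22 or above on all 7 L-GMP arrays and at 6.91 or below on the 5 MLL-AF9 knockout arrays, and Mxd4 is above 8.2 in knockout CMPs and below 8.0 in control CMPs.

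Counted over the 8 genes, 2 rose and 0 fell in knockout over control CMPs, where 4.91% of all genes passed (2.27% higher, 2.64% lower). The median change of the 8 was 0.29, against 0 over all genes, and 3 of them (Mycn, Mxd4 and Myc) had arrays that did not overlap, as did 21.1% of all genes. In MLL-AF9 knockout CMPs over knockout CMPs 1 of the 8 rose, Mycn, with 4.88% of all genes passing (1.51% higher, 3.36% lower). The median over the 8 there was −0.10, and Mycn alone of them did not overlap, as did 16.3% of all genes.

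In knockout L-GMPs over MLL-AF9 knockout progenitors Mycn and Myc fell and Mxi1 rose, 3 of 8 beside 13.2% of all genes (7.27% higher, 5.93% lower). Mycn and Mxi1 did not overlap there, as did 12.6% of all genes. In control L-GMPs over the same cells 2 of 8 passed, Mycn lower and Mxi1 higher, beside 19.0% of all genes (8.51% higher, 10.5% lower). These 2 were again the ones that did not overlap, which held for 7.73% of all genes.

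In control L-GMPs over control GMPs 5 of 8 passed, Myc, Max and Mxd3 lower and Mnt and Mxi1 higher, where 25.3% of all genes passed (10.6% higher, 14.7% lower). Of these 5, all but Mxi1 did not overlap, as did 30.8% of all genes. The 5 were 2 without primary control L-GMP replicate 2 or control GMP replicate 1, and 3 without control GMP replicates 2 or 3. In secondary over primary control L-GMPs 1 of 8 passed, Myc lower, beside 7.70% of all genes (4.04% higher, 3.67% lower). With 2 arrays a side 5 of the 8 did not overlap, as did 41.5% of all genes. In the difference of the knockout effects 1 of 8 passed, Mycn lower, beside 2.80% (2.02% higher, 0.782% lower).

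None of the 8 passed by limma in knockout over control L-GMPs, where 3.27% of all genes passed (2.10% higher, 1.16% lower), and none had arrays that did not overlap, against 13.9% of all genes. None passed in control GMPs over control CMPs, where 1.05% of all genes passed (0.717% higher, 0.331% lower) and Mycn and Mxi1 did not overlap, as did 16.3% of all genes. None passed in MLL-AF9 knockout CMPs over KSLs, where 3.32% of all genes passed (2.02% higher, 1.30% lower) and Mycn and Mxi1 did not overlap, as did 19.4% of all genes. At an unadjusted p below 0.05 these 3 comparisons held 0, 1 (Mycn) and 2 (Mycn and Mxi1) of the 8.

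**Figure D3:**
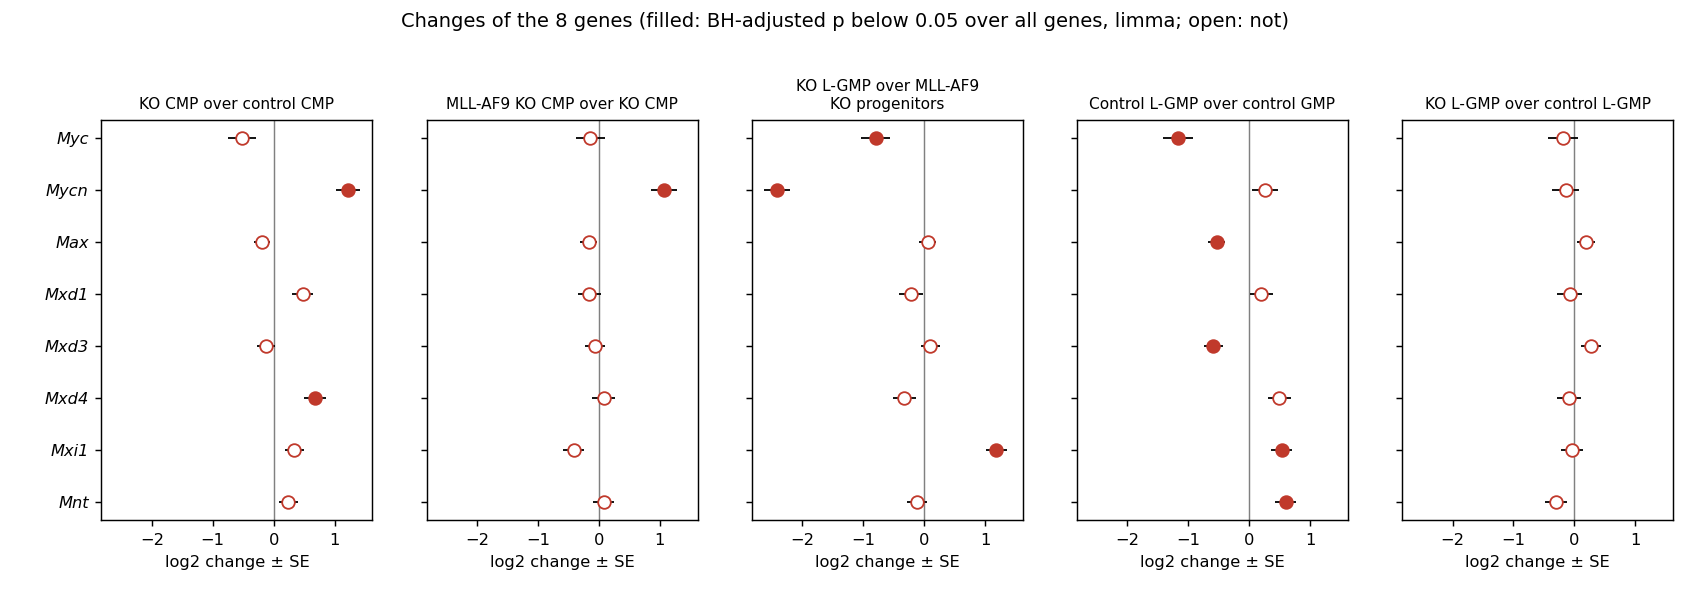
Log2 change ± SE of each of the 8 genes (rows) in 5 comparisons (panels), with filled points for an adjusted p below 0.05 over all genes and open points otherwise. Mycn is filled and positive in the 2 panels that hold knockout CMPs, at 1.22 and 1.06, filled and negative at −2.41 for knockout L-GMPs over MLL-AF9 knockout progenitors, and near 0 between genotypes of L-GMPs.

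Genes that MYC proteins are known to activate did not rise in knockout CMPs, where Mycn was high. The Myc change there, −0.52, did not pass (limma adjusted p 0.265). Of 39 measured, 0 rose and 6 fell, beside 2.64% of all genes falling, with 33 of 39 changes below 0 and a median of −0.27, against 0 over all genes. Srm, which encodes spermidine synthase, averaged 8.75 ± 0.14 in knockout CMPs and 9.64 ± 0.21 in control CMPs (SD, n = 4 each), and it fell by 0.89 ± 0.18 (limma adjusted p 0.00817). Nop16, a ribosome assembly factor, was 8.03 ± 0.17 in knockout CMPs and 8.71 ± 0.14 in control CMPs (SD, n = 4 each; change −0.68, adjusted p 0.0127). Its call was lost narrowly without knockout replicate 1 (0.0538) or control replicate 4 (0.0507). Bcat1, which encodes a branched-chain amino acid transaminase, fell by 0.48, with the call lost without control replicates 3 or 4 (0.0568 and 0.0675) or knockout replicates 1 or 3 (0.0633 and 0.0512). The other 3 that fell, by 0.40 to 0.46, were Fbl, Slc19a1 and Wdr74. Without knockout replicate 1 or control replicate 4 the count was 3, and with array weights it was 18.

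Of 10 measured genes that MYC proteins are known to repress, 4 rose and 0 fell in knockout CMPs, beside 2.27% of all genes rising, with a median of 0.53. Ccng2, which encodes cyclin G2, a cyclin linked to cell cycle arrest, averaged 8.70 ± 0.21 in knockout CMPs and 7.57 ± 0.14 in control CMPs (SD, n = 4 each). It rose by 1.14 ± 0.13 (limma adjusted p 9.55e-05), without overlap. Tob1, an anti-proliferative gene, was 8.19 ± 0.05 in knockout CMPs and 7.59 ± 0.20 in control CMPs (SD, n = 4 each; change 0.60, adjusted p 0.0108). Both calls held with any array left out. Btg1, a relative of Tob1, rose by 1.11 (adjusted p 0.0342), but every array except knockout replicate 4 was needed for the call, with adjusted p 0.0667 to 0.125 otherwise. It was also lost with high Xist as a covariate (0.138) or the replicate block (0.0732). The count was 2 without control replicates 2 or 3, without knockout replicates 1 or 2, and with high Xist as a covariate. The proliferation marker list did not pass for any of its 7 genes, and its mean level was 9.00 to 9.34 in knockout CMPs against 9.37 to 9.49 in control CMPs. Its part in the target lists was not tested.

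In MLL-AF9 knockout CMPs over knockout CMPs 6 of 39 activated targets rose and 0 fell, beside 1.51% of all genes rising, and the other 33 did not pass. Of the 39 changes 24 were above 0 and 15 below, with a median of 0.11. Srm rose by 0.84 ± 0.20 (limma adjusted p 0.0231, lost without MLL-AF9 knockout CMP replicate 1 at 0.0669 or knockout CMP replicates 1 or 2 at 0.0621 and 0.0645, with array weights at 0.141 and with the replicate block at 0.0545). Ccnd2, which encodes cyclin D2, was 10.03 ± 0.41 (SD, n = 3) in MLL-AF9 knockout CMPs and 9.21 ± 0.03 (SD, n = 4) in knockout CMPs and rose by 0.81 ± 0.16 (adjusted p 0.00803). Nme1, a nucleoside diphosphate kinase gene, rose by 0.59 ± 0.11 (adjusted p 0.00578). With these 2 groups alone the Ccnd2 and Nme1 calls were lost (0.0844 and 0.0833), and with array weights that of Nme1 (0.053). Ccng2 fell, to 7.52 ± 0.11 (SD, n = 3) in MLL-AF9 knockout CMPs, against 8.70 ± 0.21 (SD, n = 4) in knockout CMPs (change −1.18, adjusted p 0.000794). These comparisons share the knockout CMP arrays with those against control CMPs. Of 7 proliferation markers 0 rose, Mki67 fell by 1.20 and Top2a by 0.90. The count of activated targets was 2 in a fit of the 2 groups alone and 1 with array weights.

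In MLL-AF9 knockout CMPs over KSLs 8 of the 39 activated targets rose and 0 fell, beside 2.02% of all genes rising, with a median of 0.40. Shmt2, the mitochondrial serine hydroxymethyltransferase gene, rose by 1.66 ± 0.26 (limma adjusted p 0.00361) and Nop16 by 1.28 ± 0.19 (adjusted p 0.00287). Srm rose by 0.88 ± 0.23 (adjusted p 0.0497), a call lost without KSL replicate 1 (0.314) or CMP replicates 1 or 3 (0.0842 and 0.11) and with animal as a block (0.0768). The count ranged from 3 without CMP replicate 3 and 4 without KSL replicate 1 to 20 without KSL replicate 2, and it was 0 with array weights or with these groups alone.

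Against MLL-AF9 knockout progenitors 11 of 39 activated targets fell and 0 rose in knockout L-GMPs (median −0.30), beside 5.93% of all genes falling. In control L-GMPs 7 of 39 fell and 0 rose (median −0.23), beside 10.5% of all genes falling, and the other 32 did not pass. Ccnd2 averaged 8.33 ± 0.36 (SD, n = 3) in knockout L-GMPs, 7.16 ± 0.16 (SD, n = 4) in control L-GMPs and 10.04 ± 0.30 (SD, n = 5) in the MLL-AF9 knockout progenitors. Its changes were −1.80 in knockout L-GMPs (limma adjusted p 1.07e-06) and −2.88 in control L-GMPs (1.47e-09). Cad, the pyrimidine synthesis enzyme gene, fell by 1.22 ± 0.21 in knockout L-GMPs and by 0.77 ± 0.19 in control L-GMPs. Srm fell by 1.16 ± 0.20 in knockout L-GMPs, with 7.87 ± 0.57 (SD, n = 3) there and 9.23 ± 0.52 (SD, n = 5) in the MLL-AF9 knockout progenitors. The knockout count of 11 was 7 without secondary knockout L-GMP replicate 2 or KSL replicate 2, 19 without KSL replicate 1, 5 with array weights and 1 with the compared groups alone. The control count of 7 was 15 without KSL replicate 1, 2 with array weights and 1 with the compared groups alone.

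Of the 10 repressed targets 2 fell and 0 rose in knockout L-GMPs, beside 5.93% of all genes falling, and 4 fell and 0 rose in control L-GMPs, beside 10.5%. The other 8 and 6 did not pass. Btg1 fell by 1.19 in knockout L-GMPs (limma adjusted p 0.0174, or 0.0588 without KSL replicate 1) and by 1.00 in control L-GMPs (0.0179, or 0.071 without KSL replicate 1 and 0.0522 without secondary control replicate 2). Ndrg1, a stress-responsive gene, fell by 1.37 in knockout and 1.11 in control L-GMPs. Those calls were lost without KSL replicate 1 (0.0691 in knockout and 0.0997 in control L-GMPs), without secondary knockout replicate 2 (0.0645), and without primary control replicate 1 or secondary control replicates 1 or 2 (0.0691, 0.076 and 0.0527). With only the compared groups in the fit all 4 Btg1 and Ndrg1 calls were lost (0.239 to 0.389). Array weights lost those in control L-GMPs (0.136 for Btg1 and 0.0754 for Ndrg1). MLL-AF9 knockout CMPs alone on the other side lost both Btg1 calls (0.162 in knockout and 0.181 in control L-GMPs). Among the 4 that fell in control L-GMPs, Klf6 fell most, by 1.45 ± 0.39 with overlapping arrays (limma adjusted p 0.0162). With 1 array left out its change was −1.92 to −0.99, and the call did not always hold. It was also lost with the compared groups alone and with array weights.

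In control L-GMPs over control GMPs 16 of 39 activated targets fell and 0 rose, with a median of −0.39, beside 14.7% of all genes falling. Ccnd2 was 7.16 ± 0.16 (SD, n = 4) in control L-GMPs and 8.86 ± 0.26 (SD, n = 3) in control GMPs, a change of −1.70 (limma adjusted p 1.56e-05). Hk2, which encodes hexokinase 2, was 5.75 ± 0.46 (SD, n = 4) in control L-GMPs and 7.12 ± 0.14 (SD, n = 3) in control GMPs, a change of −1.37 (adjusted p 0.000509). Proliferation markers moved with them: 6 of 7 fell, among them Top2a by 1.16 and Birc5 by 0.96, and the list's mean level was 8.57 to 8.88 in control L-GMPs and 9.44 to 9.60 in control GMPs. Their part was not tested. Among repressed targets Tob1 rose by 1.44 ± 0.14 (adjusted p 1.63e-05) and Gas1 fell by 0.66. The count of 16 was 9 without control GMP replicate 2, 10 without secondary control L-GMP replicate 1 and 7 with primary recipients alone.

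Between genotypes of L-GMPs 2 of 39 activated and 0 of 10 repressed targets passed, beside 3.27% of all genes (2.10% higher, 1.16% lower). Ccnd2 rose by 1.07 ± 0.16 in knockout over control L-GMPs (limma adjusted p 0.00142) and Srm fell by 0.86 ± 0.20 (0.0295). The other 37 activated targets were not past the threshold. The Srm call was lost without primary control replicate 2 (0.0609), secondary control replicate 2 (0.0996) or secondary knockout replicate 2 (0.0916), with array weights (0.0876) and with secondary recipients alone (0.138). With the compared groups alone both calls were lost (0.153 for Ccnd2 and 0.325 for Srm). The median of the 39 was −0.14.

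**Figure D4:**
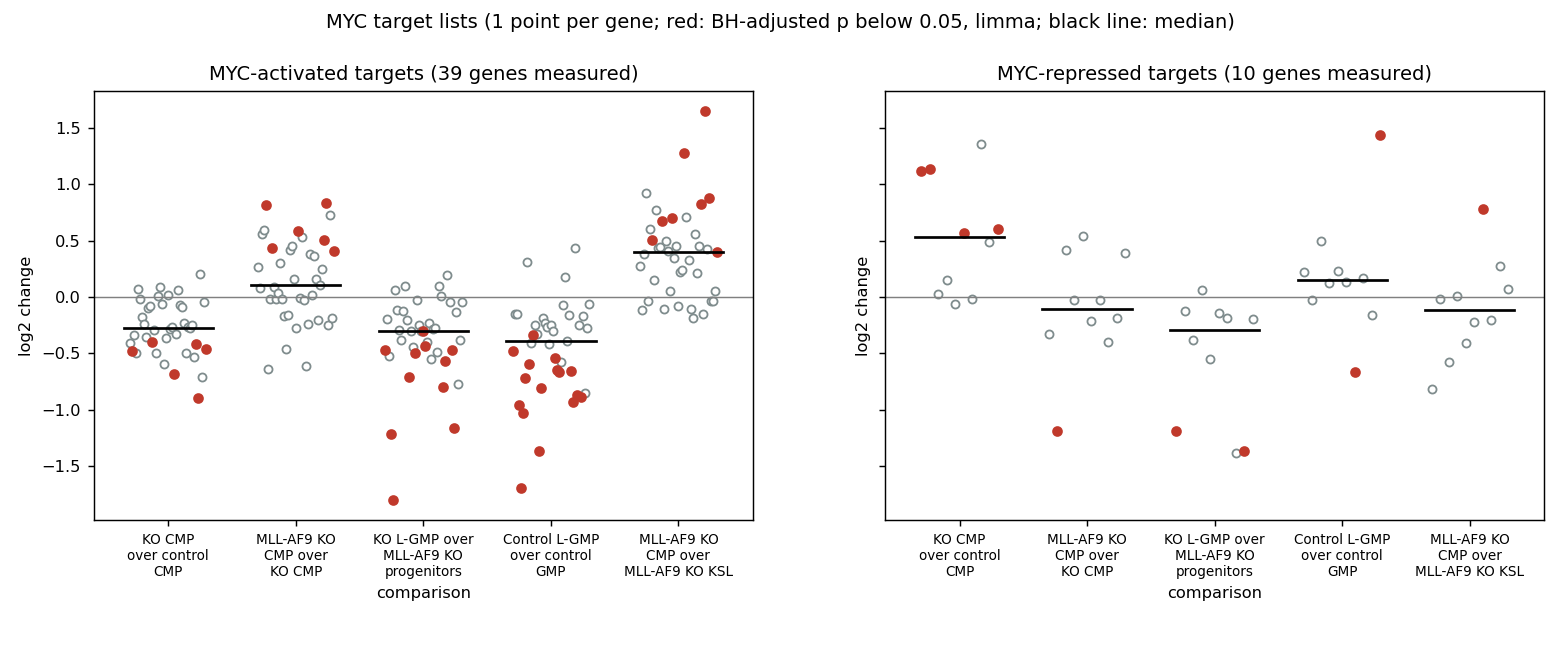
Log2 change of each measured MYC-activated target (left panel, 39 genes) and MYC-repressed target (right panel, 10 genes) in 5 comparisons, with each point 1 gene, red points past the threshold and black lines the medians. The activated targets have medians of −0.27, 0.11, −0.30, −0.39 and 0.40 from left to right, and the only red points in knockout CMPs over control CMPs are negative on the left and positive on the right.

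The rest of the network's machinery in knockout CMPs was read beside 4.91% of all genes passing (2.27% higher, 2.64% lower). Of 11 cofactors 1 rose and 0 fell. Of 11 genes of MYC protein turnover 1 rose and 2 fell, as did 1 and 2 of 17 upstream regulators, a list that holds the deleted Cebpa. Of 7 further MAX and MLX partners 0 changed, with Mga, a MAX-binding repressor, at 0.30 (limma adjusted p 0.185) and Mlx, the partner of the glucose-sensing MONDO proteins, at −0.25 (0.414). Of 9 SIN3 corepressor genes 0 changed, with Sap30 at −0.31 (0.385) and Sin3b at 0.28 (0.163). Among 11 cofactors Ccnt1, cyclin T1 of the elongation factor P-TEFb, rose by 0.73 ± 0.14 (0.006). Among 11 genes of MYC protein turnover, Skp2, the F-box protein of a ubiquitin ligase that targets MYC, fell by 0.82 ± 0.15 (0.00393). Aurka, the kinase known to stabilise MYCN, fell by 0.44 (0.0215), a call lost without control replicates 1, 2 or 3 or knockout replicates 1 or 4 (0.0553 to 0.0748) and with high Xist as a covariate (0.0868). Fbxo32, another F-box gene, rose by 0.68 (0.0215), a call lost without control replicates 3 or 4 or knockout replicates 1, 2 or 4 (0.0546 to 0.0829). Among 17 upstream regulators Cebpa fell by 2.23 ± 0.17, Cebpe, the later granulocyte C/EBP, fell by 0.84 (0.0186; 0.0571 and 0.0604 without knockout replicates 1 and 2), and Stat3, a cytokine signal transducer, rose by 0.65 (0.0191). The Stat3 call was lost without control replicates 2, 3 or 4 or knockout replicates 1 or 2 (0.054 to 0.0797) and with high Xist as a covariate (0.104).

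In MLL-AF9 knockout CMPs over knockout CMPs, Mga fell by 0.66 ± 0.13 (limma adjusted p 0.00794) and Ccnt1 by 0.87 ± 0.15 (0.0048). In control L-GMPs over control GMPs, Skp2 fell by 1.06 ± 0.16 (0.000446), Cip2a, known to protect MYC from degradation, by 1.05 (0.0112; 0.0526 without control GMP replicate 1). Mycl, the remaining MYC family gene, fell by 0.49 (0.0287), a call lost without primary or secondary control L-GMP replicate 2 (0.0987 and 0.109) or control GMP replicates 1 or 3 (0.104 and 0.0933). In knockout L-GMPs over MLL-AF9 knockout progenitors Aurka rose by 0.64 (0.000846), a call that rests on the primary knockout array, without which adjusted p was 0.345. Cebpe rose there by 2.71 ± 0.21 (3.52e-07) while Cebpa stayed low. In control L-GMPs over the same progenitors Aurka rose by 0.65 (limma adjusted p 0.000261). With any array left out that change was 0.51 to 0.78, and its call was lost with the compared groups alone.

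The genes whose pattern was most like that of each member were ranked by Pearson's r over the 9 group means among 5120 genes. The means of these genes span at least 1 log2 unit. Predicted, clone-named, small RNA, olfactory receptor and immunoglobulin or T cell receptor segment genes, among other classes, were left out by name. The groups hold 1 to 4 arrays each and share the transplanted and untransplanted split, so the r values only describe these groups. For Mycn they were Myo6, an unconventional myosin gene (0.990), Mpp4, a membrane scaffold gene (0.983), and Gimap5 (0.978). For Myc they were E2f6, a repressor of the E2F family (0.983), Akap1, a mitochondrial kinase anchor (0.979), and Rfc5, of the replication clamp loader (0.975). For Max they were Ckb, Med18 and Pus7l (0.960 to 0.973), for Mxd1 Pear1, Gzmc and Unkl (0.922 to 0.927) and for Mxd3 Eri2, Lrrc40 and Poglut2 (0.958 to 0.965). For Mxd4 they were Tspan32, Ddah2 and Dhrs3 (0.901 to 0.910), for Mxi1 Plekhf2, Abraxas2 and Bin3 (0.948 to 0.968) and for Mnt Bsx, Nphs1 and Igsf10 (0.947 to 0.948). Among the members themselves, over the same 9 group means, Mycn went with Mxd1 (0.76) and Mxd4 (0.71) and against Mxi1 (−0.71). Myc went with Max (0.71), and Myc with Mycn had r = 0.31. Mxd3 and Mnt ran opposite (−0.86).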

How the data were processed

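RNA of sorted cells was amplified with the NuGen Ovation Pico WTA system, per the labels' protocols, and hybridised to 23 Affymetrix arrays. The authors deposited RMA-normalised log2 values for 34760 probe sets, per the submitters' processing notes, with neither RMA version nor genome build given in the sources used here. Since RMA removes background and brings all arrays to a shared distribution, a level is relative to its array, and 2952 to 3379 probe sets per array stand at a floor of 3. The number of arrays limits the precision.

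Of the probe sets, 21640 carry 1 gene symbol in GEO's platform annotation, 1321 several and 11799 none. The highest-mean probe set stood for each gene with several (954 of 19937 genes). Group means of the 9 groups were fitted with limma 3.58.1 in R 4.3.3 with a variance trend, and p-values were adjusted by Benjamini-Hochberg over 19937 genes. Where a comparison joins several groups, each group has equal weight. Scripts were tested on simulated data.

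The text names all 8 genes and Cebpa, and the 3 genes most like each member. Other listed genes were mostly taken from the 3 per list, direction and comparison with the largest changes past the threshold. Where none passed, the largest 2 could be given as values. Not all genes that meet this rule are named, so a listed gene that is not named may have passed. The members and lists were chosen with earlier results of these data known. Alternatives were the compared groups alone, array weights, no variance trend, robust estimation, quantile normalisation, a minimum mean of 5, the mean over probe sets, each array left out, replicate number as a block, high Xist as a covariate, and other choices of recipients or reference cells.

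Same-numbered MLL-AF9 knockout KSL and CMP arrays come from the same animals per the labels, and their deviations from the group means correlated at 0.45 and 0.26. Other groups share only a number. No 2 arrays were copies, with the highest pairwise correlation at 0.9914 and at most 0.00316% of values identical.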

Additional observations from a re-analysis of the deposited data

Results flagged for a closer look

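Among groups of 4 arrays, Dixon's test at 95% was run on 54 gene and group combinations and marked 4, and chance marks about 1 in 20. Control CMP replicate 4 had Mycn at 5.43, below the other 3 at 5.84 to 5.92. Knockout CMP replicate 2 had Bcat1 at 4.85, knockout CMP replicate 4 had Skp2 at 6.69 and control CMP replicate 3 had Ccnt1 at 7.90, each apart from the other 3 arrays of its group.

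The knockout effect differed between L-GMPs and CMPs, by limma's test of the difference, for 5 of the genes named. Genes beyond the members and Cebpa were named partly for passing such tests, this one included. Their count therefore cannot be compared with the 2.80% of all genes that passed. The effect in L-GMPs minus that in CMPs was −1.37 for Mycn (adjusted p 0.0181), −1.0 for Ccng2 (0.0113), 1.01 for Ccnd2 (0.0184), 0.89 for Skp2 (0.0405) and 1.29 for Cebpe (0.0244). The Skp2 call was lost with 11 of the 15 arrays left out in turn, with adjusted p up to 0.0936 without secondary knockout L-GMP replicate 1. The Cebpe call was lost with 5 of 15, with adjusted p up to 0.238 without the primary knockout L-GMP array. With the replicate block the calls of Mycn (0.0624), Ccnd2 (0.0634) and Skp2 (0.165) were lost, with quantile normalisation those of Skp2 (0.0685) and Cebpe (0.0553), and with array weights that of Cebpe (0.0527). All knockout L-GMP arrays are 1 leukaemia, whose primary recipient was given IL-3 and GM-CSF vectors, with none named for control L-GMPs. Genotype, vectors and the individual leukaemia cannot be told apart in the L-GMP effect.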

How the results depend on the processing

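No change that passed turned its sign under any alternative tried. Of 190 tested changes, 26 that had not passed turned sign in 54 alternative values, none of them past the threshold. With secondary recipients alone, knockout over control L-GMPs gave 0.21 for Myc (reported −0.19), 0.05 for Mycn (−0.14), 0.26 for Mxd4 (−0.09) and 0.08 for Mnt (−0.30), and without KSL replicate 1 Myc in MLL-AF9 knockout CMPs over KSLs was −0.39 (0.38). The Mycn change in knockout over control CMPs and in both L-GMP comparisons with MLL-AF9 knockout progenitors kept its call throughout. The count of the 8 genes past the threshold moved as follows. With only the compared groups in the fit it was 1, against 3 reported, for knockout L-GMPs over MLL-AF9 knockout progenitors, 0 against 1 for MLL-AF9 knockout CMPs over knockout CMPs, 3 against 5 for control L-GMPs over control GMPs, and 0 against 1 for secondary over primary control L-GMPs. With array weights it was 5 against 2 for knockout over control CMPs, 1 against 0 for control GMPs over control CMPs and 0 against 1 for secondary over primary control L-GMPs, where quantile normalisation also gave 0. High Xist as a covariate gave 1 against 2 in knockout over control CMPs, and primary recipients alone gave 3 against 5 in control L-GMPs over control GMPs.

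The replicate block gave 1 against 2 in knockout over control CMPs (Mxd4 adjusted p 0.0568), 3 against 5 in control L-GMPs over control GMPs, 2 against 1 in secondary over primary control L-GMPs, and 0 against 1 in the difference of the knockout effects (Mycn −1.28, adjusted p 0.0624). Those groups share only a number, with deviations that correlated at −0.21 to 0.08 between knockout and control CMPs. In MLL-AF9 knockout CMPs over KSLs, where the block is the animal, 0 passed with and without it.

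Leaving out 1 array gave 1 to 2 of the 8 in knockout over control CMPs, 0 to 1 in knockout over control L-GMPs, 2 to 4 in control and 2 to 3 in knockout L-GMPs over MLL-AF9 knockout progenitors, 0 to 3 in MLL-AF9 knockout CMPs over KSLs, 2 to 6 in control L-GMPs over control GMPs, 0 to 1 in secondary over primary control L-GMPs and 1 to 2 in the difference. Over all genes, the 979 that passed in knockout over control CMPs were 530 to 817 with 1 array left out and 593 to 3762 in the other alternatives. The causes of these shifts were not tested. Where a side has 1 array left, it is assumed to vary like the other groups.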
